A study of Homo sapiens with 18 samples.

Results

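The p53 target genes described here are 10 genes chosen by name, CDKN1A, MDM2, BBC3, BAX, FAS, GDF15, SESN1, TP53INP1, RRM2B and TP53I3, of 61267 genes in the RNA-seq count table. All 10 had counts in each RNA-seq library and passed the filter on low counts, as did 30377 genes in all. Their exons held 15 of the 39708 m6A peaks of the series on the same strand, spread over 7 of the 10 genes. The cells were LoVo, an established human colorectal cancer line, carrying either METTL3 K513R, a lysine-to-arginine substitution, or METTL3 WT. METTL3 catalyses the N6-methyladenosine (m6A) modification of mRNA, and the question put to these cells was what methylation of METTL3 itself at that lysine does. Each genotype had 3 RNA-seq libraries of total RNA after rRNA removal, and 3 input and 3 immunoprecipitated (IP) libraries from fragmented poly(A) RNA by MeRIP-seq, which pulls m6A-bearing fragments down with an antibody. The labels name no DNA-damaging or other treatment, and the origin of the K513R cells, 1 clone or a pool, is not stated in them. Whether the 3 libraries of a group are separate cultures is not said either, and the p-values reflect only library-to-library spread, which may be technical.

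p53 is a transcription factor that is held at a low level by the ubiquitin ligase MDM2 and accumulates when DNA damage or other stress blocks that degradation. It binds response elements near its target genes and raises a set of transcripts that arrest the cell cycle, trigger apoptosis, repair DNA, limit oxidative stress and, through MDM2 itself, switch p53 off again. In colorectal cells this response decides between arrest and death after genotoxic drugs, with CDKN1A serving arrest and BBC3, BAX and FAS serving death.

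Levels are given as CPM, counts scaled to a common library size. Counts in the RNA-seq table summed to 47451837 to 53795212 per K513R library and 47105235 to 51886164 per WT library, and counts inside peaks to 2625446 to 4847236 per K513R input and 5025027 to 6200264 per WT input library. RNA composition differed between the genotypes: genes of the 7SL RNA family took 17.9 ± 0.742% of K513R counts and 2.31 ± 0.518% of WT counts (SD, n = 3 each), and mitochondrially encoded genes took 0.281 ± 0.0631% of K513R counts and 4.16 ± 0.725% of WT counts. The median log2 fold change over all genes tested was 0.13, and 0.39 with upper-quartile factors in place of TMM factors, so values below are to be read against that shift. By library-size CPM, epithelial markers summed to 2256 to 2698 CPM in K513R libraries and 11054 to 16593 CPM in WT libraries, led by KRT8 in both, with 9 of 16 markers at 1 CPM or more in each genotype and CDX1 without a count. Markers of fibroblasts, endothelium and blood cells summed to 104 to 117 CPM in K513R libraries and 60.8 to 76.3 CPM in WT libraries, with 17 of 23 markers in K513R and 8 of 23 in WT at 1 CPM or more. The part of these differences in the results was not tested, and in bulk libraries fewer cells with a transcript and less transcript per cell cannot be told apart.

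In total RNA the p53 targets moved apart rather than together. FAS, TP53INP1, BAX, SESN1, TP53I3 and CDKN1A were higher in K513R cells, MDM2, BBC3, GDF15 and RRM2B were lower, and the log2 fold changes ran between 1.63 for TP53INP1 and -1.51 for MDM2. All 10 passed edgeR's quasi-likelihood test at an adjusted p under 0.05, where 78.3% of all genes tested did, 41.5% higher and 36.9% lower in K513R. The libraries of the genotypes did not overlap for any of the 10 genes, which was also true of 80.3% of all genes tested. Being called is therefore near the background of this comparison, and the sizes and directions below are the information. The median log2 fold change of the 10 genes was 0.41, against 0.13 for all genes tested.

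**Figure D1:**
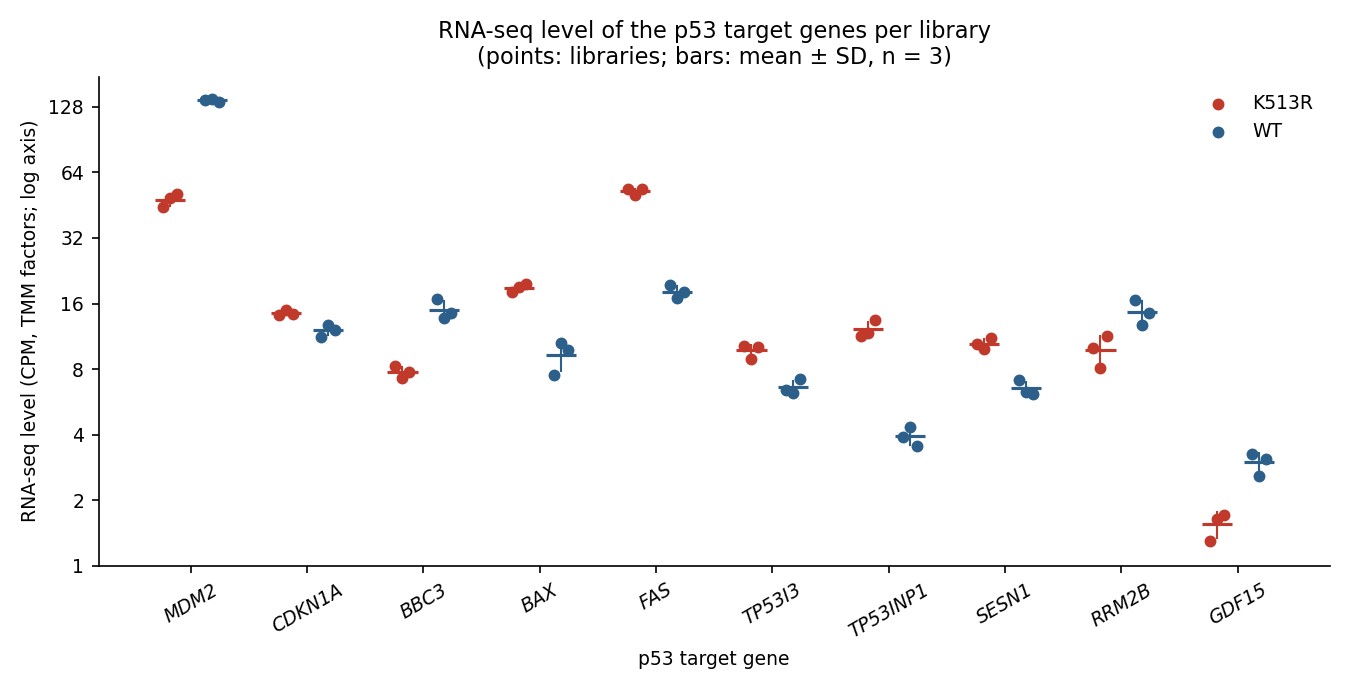
RNA-seq level of the 10 p53 target genes in each library, in CPM with TMM factors on a log axis, K513R in red and WT in blue, with the mean and SD of 3 libraries. MDM2, BBC3, RRM2B and GDF15 lie lower in K513R, the other 6 genes lie higher, and the closest pair of groups is that of CDKN1A.

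MDM2 (chr12:68808177-68845544, + strand), the ligase that degrades p53 and itself a p53 target, had the largest fall. Its level was 44.3, 48.6 and 51.2 CPM in K513R libraries, against 137, 139 and 135 CPM in WT libraries. The WT libraries lay within a narrow band well above every K513R library, and the log2 fold change was -1.51 ± 0.10 (SE; edgeR adjusted p = 3.79e-10). MDM2 shares 14.7% of its exonic bases with other genes, more than any other of the 10. The opposite-strand gene with which it shares most, ENSG00000257181, was lower too, at 4.93 ± 1.08 CPM in K513R and 17.9 ± 1.30 CPM in WT libraries. The same-strand gene ENSG00000256664 was at -1.62 ± 0.21. The RNA-seq libraries were stranded per the labels, but the counting settings are not stated there, and at 1 place the counts look as if strand was not used. MIR3190 and MIR3191, microRNA genes on opposite strands of the same stretch of BBC3, had counts of 39, 34 and 42 each in K513R libraries and of 25 to 26, 22 and 23 in WT libraries. Whether reads of an antisense partner were counted for a gene in the shared bases was not tested for the other genes.

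Response elements were looked for in the windows of 250 bases before the annotated transcript starts (RefSeq, GRCh38.p14). The search used the p53 response element consensus, its 2 copies of 10 bases set side by side with no spacer and at most 3 mismatches of 20, read on both strands. Windows were at hand for 8 of the 10 genes, 15 windows in all, and 3 genes held an element, MDM2, FAS and SESN1. Of all 35116 windows 4.36% held one, and of all 27305 genes 5.38%. The MDM2 window (chr12:68808767-68809016, + strand), which precedes a start inside the gene, held 2 elements, 94 and 56 bases before the start, with 2 and 3 mismatches. The FAS window (chr10:88991181-88991430, + strand) held 1 element with 2 mismatches, and the SESN1 window (chr6:109008989-109009238, − strand) held 1 with 3 mismatches. They are printed because they differ in direction in total RNA, MDM2 lower and FAS and SESN1 higher in K513R, with elements in capitals.
MDM2: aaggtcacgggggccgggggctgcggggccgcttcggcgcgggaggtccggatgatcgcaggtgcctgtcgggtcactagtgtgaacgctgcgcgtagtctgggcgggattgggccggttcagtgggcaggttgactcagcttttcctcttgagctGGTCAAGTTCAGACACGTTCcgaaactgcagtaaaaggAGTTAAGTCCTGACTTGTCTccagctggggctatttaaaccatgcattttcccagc
FAS: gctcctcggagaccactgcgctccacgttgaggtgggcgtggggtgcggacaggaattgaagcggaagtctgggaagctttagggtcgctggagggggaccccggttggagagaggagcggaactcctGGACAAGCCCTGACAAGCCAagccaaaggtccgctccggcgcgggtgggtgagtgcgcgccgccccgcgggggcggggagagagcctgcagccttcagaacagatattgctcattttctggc
SESN1: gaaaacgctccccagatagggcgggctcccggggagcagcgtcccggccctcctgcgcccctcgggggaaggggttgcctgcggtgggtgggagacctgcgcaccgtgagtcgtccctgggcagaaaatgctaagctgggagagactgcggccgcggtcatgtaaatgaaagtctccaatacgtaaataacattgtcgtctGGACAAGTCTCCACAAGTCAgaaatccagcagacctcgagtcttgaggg
A match describes the letters of the window, and no match says only that these letters were not found there.

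CDKN1A (chr6:36676460-36687337, + strand) encodes p21, the inhibitor of cyclin-dependent kinases through which p53 halts the cycle. It had 14.2, 14.96 and 14.3 CPM in K513R libraries and 11.3, 12.7 and 12.1 CPM in WT libraries, groups that lay close without touching. The log2 fold change of 0.27 ± 0.11 was the smallest of the 10 (edgeR adjusted p = 0.0405). This call was lost when any 1 of the 6 libraries was left out, with adjusted p between 0.0656 and 0.196, and with library size scaling (0.239) or without the filter on low counts (0.210). DINOL is a p53-induced noncoding RNA transcribed from the opposite strand at the start of CDKN1A. It was looked at after its values were seen, and shares 146 bases with CDKN1A, 4.87% of the exonic bases of CDKN1A. It had 52, 80 and 35 counts in K513R libraries and 2, 2 and 0 counts in WT libraries. Pooled, these are 167 counts against 4, a ratio of 40.5 after scaling to library totals, with an exact 95% interval of 15.5 to 150.5 that covers counting error only. The level counted for DINOL in K513R was 1.15 ± 0.490 CPM, well under that of CDKN1A. DINOL (chr6:36677609-36678559) lies within the span of CDKN1A, and whether its counts came from the antisense strand was not tested. If strand was not used in counting, RNA of CDKN1A and of DINOL cannot be told apart there.

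The 3 genes of the cell death arm did not share a direction. FAS (chr10:88953813-89029605, + strand), the death receptor on the cell surface, had 53.5, 50.3 and 53.6 CPM in K513R libraries and 19.4, 16.9 and 18.1 CPM in WT libraries. It rose by 1.53 ± 0.10 on the log2 scale (SE; edgeR adjusted p = 3.23e-10), the second largest change upward after TP53INP1. FAS shares 7.04% of its exonic bases with ACTA2, STAMBPL1 and ENSG00000286116. ENSG00000286116, on the opposite strand, shares the most, 1899 bases, and was at 9.68 ± 0.845 CPM in K513R and 3.58 ± 0.279 CPM in WT libraries (log2 fold change 1.43 ± 0.15). ACTA2, also on the opposite strand, was at 1.18 ± 0.15, and STAMBPL1, on the same strand, at 0.31 ± 0.18 and not called. BAX (chr19:48954815-48961798, + strand), which forms pores in the outer mitochondrial membrane, had 18.1, 19.0 and 19.7 CPM in K513R libraries and 7.52, 10.5 and 9.84 CPM in WT libraries. Its exons overlap no other gene, the K513R libraries all lay above the WT libraries, and the log2 fold change was 1.03 ± 0.13 (edgeR adjusted p = 1.33e-06). BBC3 (chr19:47220822-47232766, − strand), the BH3-only protein PUMA that activates BAX, had 8.24, 7.31 and 7.76 CPM in K513R libraries and 16.7, 13.7 and 14.4 CPM in WT libraries. It fell by 0.95 ± 0.13 (edgeR adjusted p = 2.18e-06), so the activator was lower where the pore former was higher.

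TP53INP1 and TP53I3 code for proteins through which p53 promotes cell death. TP53INP1 (chr8:94925972-94949378, − strand), a nuclear p53 cofactor that also acts in autophagy, had 11.4, 11.7 and 13.4 CPM in K513R libraries and 3.90, 4.32 and 3.56 CPM in WT libraries. This was the largest rise among the 10 genes, 1.63 ± 0.14 on the log2 scale (edgeR adjusted p = 8.38e-09), and the lowest K513R library lay far above the highest WT library. TP53I3 (chr2:24077433-24085861, − strand), a quinone oxidoreductase linked to reactive oxygen, had 10.2, 8.91 and 10.1 CPM in K513R libraries and 6.44, 6.23 and 7.16 CPM in WT libraries. It rose by 0.56 ± 0.13 (edgeR adjusted p = 9.61e-04). FAM228B on the opposite strand, with which it shares 3.46% of its exonic bases, was at 1.23 ± 0.16.

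SESN1 (chr6:108984309-109094846, − strand), a sestrin that restrains mTORC1 and oxidative damage, and RRM2B (chr8:102204502-102238961, − strand), the p53-induced small subunit of ribonucleotide reductase that supplies deoxynucleotides for repair, went opposite ways. SESN1 had 10.4, 9.84 and 11.2 CPM in K513R libraries and 7.13, 6.27 and 6.15 CPM in WT libraries, a rise of 0.68 ± 0.13 (edgeR adjusted p = 1.37e-04). RRM2B had 9.96, 8.05 and 11.4 CPM in K513R libraries and 16.6, 12.7 and 14.5 CPM in WT libraries. It fell by 0.58 ± 0.14 (edgeR adjusted p = 0.00130), with the highest K513R library close below the lowest WT library, and was not called with upper-quartile factors (-0.31, adjusted p = 0.0550). GDF15 (chr19:18374731-18389176, + strand), a secreted stress cytokine, was the least abundant of the 10, with 1.30, 1.64 and 1.71 CPM in K513R libraries and 3.27, 2.59 and 3.09 CPM in WT libraries. It fell by 0.94 ± 0.21 (edgeR adjusted p = 5.40e-04).

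Per length of exon the order of the 10 genes differed between the genotypes. In K513R libraries BAX was the highest at 7.32 ± 0.316 CPM per kb (SD, n = 3), followed by MDM2 at 5.78 ± 0.418, CDKN1A at 4.84 ± 0.141 and TP53I3 at 4.21 ± 0.312 CPM per kb. Below them came BBC3 (2.44), TP53INP1 (2.16), RRM2B (1.82), FAS (1.79), SESN1 (1.44) and GDF15 (0.743 CPM per kb). In WT libraries MDM2 led at 16.5 ± 0.251 CPM per kb, followed by BBC3 at 4.70 ± 0.493, CDKN1A at 4.02 ± 0.244 and BAX at 3.59 ± 0.605 CPM per kb. TP53I3 (2.86), RRM2B (2.71), GDF15 (1.43), SESN1 (0.896), TP53INP1 (0.696) and FAS (0.618 CPM per kb) closed the WT order. Neighbours whose libraries overlapped were BBC3 with TP53INP1, TP53INP1 with RRM2B and RRM2B with FAS in K513R cells. In WT cells they were CDKN1A with BAX, BAX with TP53I3, TP53I3 with RRM2B, and TP53INP1 with FAS. The annotated exons of FAS add up to 29313 bases, those of the other 9 genes to 2087 to 8306 bases.

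**Figure D2:**
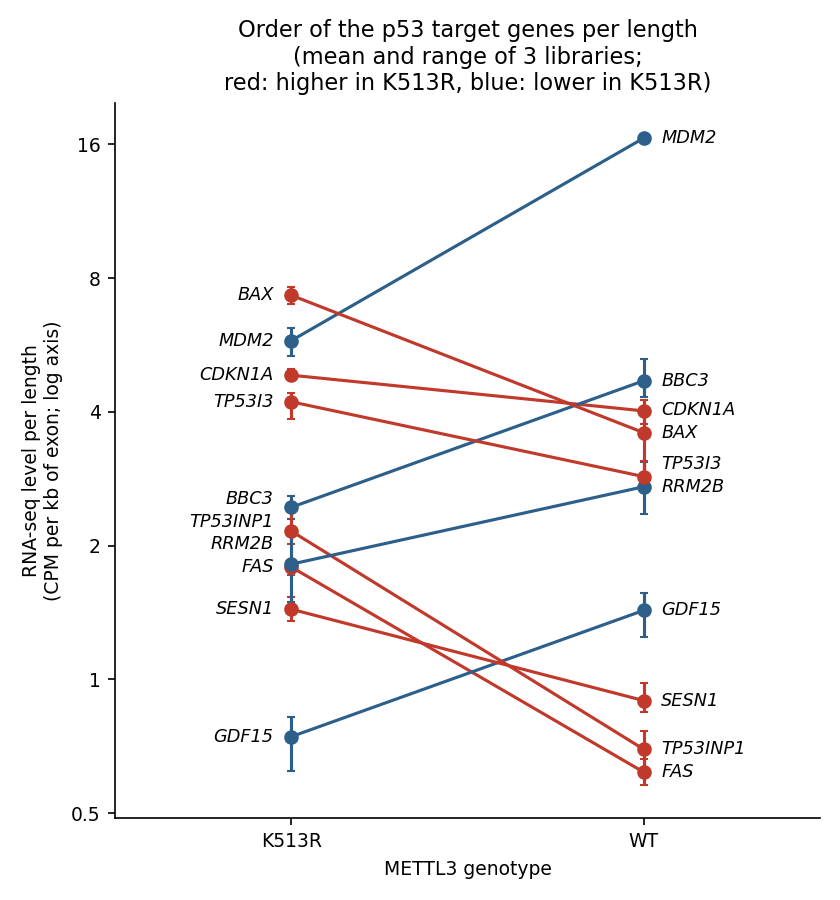
Mean RNA-seq level per kb of exon of the 10 genes on a log axis, K513R on the left and WT on the right, with bars for the range of 3 libraries. MDM2 leads in WT at 16.5 CPM per kb and BAX leads in K513R at 7.32 CPM per kb, and the lines of genes that differ in direction cross.

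Most genes of the list of p53 regulators were lower in K513R cells. Of 25 p53 regulators tested, 19 were lower and 2 higher in K513R, where 36.9% of all genes tested were lower and 41.5% higher. The median log2 fold change of the regulators was -1.09 against 0.13 for all genes tested. With upper-quartile factors, and again without the 7SL, 7SK and mitochondrial genes, 6 regulators were higher. Between 18 and 19 were lower under each of 16 alternatives. USP7, the deubiquitinase that stabilises MDM2 and p53, was at 30.3 ± 1.73 CPM in K513R and 344 ± 35.0 CPM in WT libraries, a log2 fold change of -3.50 ± 0.12. MDM4, the relative of MDM2 that masks the activation domain of p53, was at 6.06 ± 0.288 CPM in K513R and 54.1 ± 2.60 CPM in WT libraries (-3.16 ± 0.11). TP73, a transcription factor of the p53 family, was at 0.626 ± 0.181 CPM in K513R and 9.61 ± 0.985 CPM in WT libraries (-3.93 ± 0.21).

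The wider set of p53 targets also split, with more genes higher than lower. Among 35 other p53 targets tested, 20 were higher and 12 lower in K513R, with a median log2 fold change of 0.49 against 0.13 for all genes tested. Over all genes tested 41.5% were higher and 36.9% lower, so those too were more often higher than lower. With upper-quartile factors 7 of these other p53 targets were lower. PMAIP1, the BH3-only protein NOXA, was at 129 ± 4.45 CPM in K513R and 11.7 ± 1.07 CPM in WT libraries (log2 fold change 3.45 ± 0.12), the largest rise of that list. TRIM22, an interferon-induced antiviral factor that p53 also raises, was at 6.55 ± 0.175 CPM in K513R and 1.25 ± 0.261 CPM in WT libraries (2.38 ± 0.19). TRIAP1, which counters apoptosis at the mitochondrion, was at 46.0 ± 2.13 CPM in K513R and 9.67 ± 1.87 CPM in WT libraries (2.25 ± 0.13). All 3 had edgeR adjusted p of at most 2.79e-09.

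The machinery on which the death and arrest genes act was more often lower than higher. Of 22 genes of the BCL2 family and the death receptor pathway, 15 were lower and 2 higher in K513R, with a median log2 fold change of -0.50. Over 16 alternatives 11 to 15 of this list were lower and 2 to 3 higher. Leaving out 1 library gave 11 to 15 lower. FADD, the adaptor that FAS recruits, was at 4.21 ± 0.318 CPM in K513R and 20.2 ± 1.49 CPM in WT libraries (log2 fold change -2.26 ± 0.13), so receptor and adaptor differed in direction. HRK, a BH3-only protein, fell by 2.14 ± 0.18, and XIAP, an inhibitor of caspases, fell by 1.69 ± 0.13 on the log2 scale. Of 16 cyclins, cyclin-dependent kinases and inhibitors that work beside p21, 10 were lower and 3 higher, with a median of -0.67. CDKN2B was at 108 ± 5.77 CPM in K513R and 7.78 ± 1.33 CPM in WT libraries (3.79 ± 0.13), and CDKN2D was at 81.7 ± 0.932 CPM in K513R and 11.6 ± 0.451 CPM in WT libraries (2.82 ± 0.11). Both inhibit the kinases that pair with D-type cyclins. CCNA2, the cyclin of S phase that p21 restrains, fell by 2.35 ± 0.10. Of 11 closest relatives of the 10 genes that were tested, 6 were lower and 4 higher, with a median of -0.80. The median of all genes tested was 0.13, and 36.9% of them were lower and 41.5% higher. RRM2, the subunit for which RRM2B can stand in, fell by 2.18 ± 0.13, and SESN2, the sestrin next to SESN1, fell by 1.32 ± 0.13, opposite to SESN1. The edgeR adjusted p of these genes was at most 5.14e-08. The list of relatives shares 7 of its 13 genes with the other lists.

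**Figure D3:**
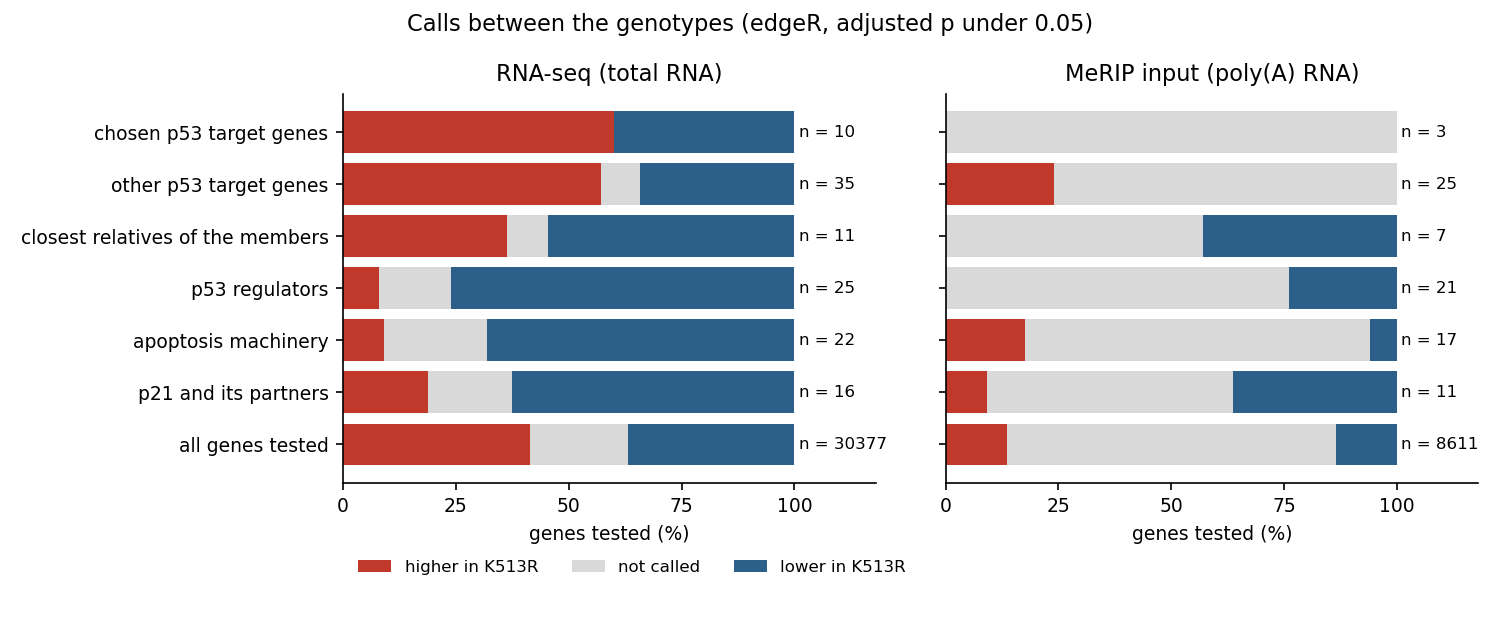
Share of the genes tested in each list that edgeR called higher (red) or lower (blue) in K513R, in RNA-seq on the left and in MeRIP input on the right, with the number of genes tested at the bar's end. In RNA-seq 19 of 25 p53 regulators were lower, against 36.9% of all genes tested, and in input all 3 p53 target genes tested were not called.

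The MeRIP inputs gave a second, separate measurement of transcript level in the same 2 genotypes, from poly(A) RNA, but only inside m6A peaks. Genes with a peak numbered 11539, and 8611 had enough input counts to be tested. Of the 10 p53 targets, GDF15, TP53INP1 and RRM2B had no peak, and CDKN1A, BBC3, FAS and TP53I3 had at most 10 input counts in any library. MDM2, BAX and SESN1 remained. In input, 27.1% of genes tested were called, 13.5% higher and 13.6% lower in K513R, and 0 of these 3 genes. The count was also 0 by DESeq2 and by limma-voom, and 1 of the 3, SESN1, had an unadjusted edgeR p under 0.05.

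Input levels of MDM2 did not repeat the fall seen in total RNA. MDM2 had 64.2, 73.3 and 94.5 CPM in K513R inputs and 74.4, 84.4 and 69.0 CPM in WT inputs, with groups that overlapped fully. The log2 fold change was 0.01 ± 0.14 (edgeR adjusted p = 0.958). The MDM2 peaks summed were a peak with 18.4% of its bases in exons and a peak that overlaps an opposite-strand peak of close counts. BAX had 18.2, 22.6 and 27.1 CPM in K513R inputs and 20.99, 22.8 and 22.3 CPM in WT inputs, again overlapping, with a log2 fold change of 0.01 ± 0.19 (edgeR adjusted p = 0.967). Nearly all BAX input counts come from its first-exon peak, 59 of 60 in K513R input replicate 1. SESN1 had 5.15, 4.07 and 2.01 CPM in K513R inputs and 6.38, 6.78 and 7.83 CPM in WT inputs, all K513R inputs below all WT inputs. The genotypes did not overlap, in 1 direction or the other, for 42.3% of genes tested in input. Its log2 fold change of -0.83 ± 0.36 was opposite in sign to that in total RNA and missed the threshold (edgeR adjusted p = 0.0987; 0.0494 without K513R input replicate 1). These SESN1 values rest on 4 to 17 counts per K513R input and 22 to 32 per WT input. They come only from peaks in the first of 14 exons, while the RNA-seq counts cover all exons. The annotated start behind the SESN1 window printed above lies downstream of these peaks.

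The difference between the assays was tested in 1 edgeR model over RNA-seq and input libraries. In that model RNA-seq levels are scaled to the genes with a peak, which moves every RNA-seq fold change by the same amount relative to the values above. The genotype effect in total RNA exceeded that in input for BAX by 1.41 ± 0.23 on the log2 scale (edgeR adjusted p = 1.48e-05), for SESN1 by 1.89 ± 0.35 (adjusted p = 5.11e-05) and for FAS by 2.15 ± 0.65 (adjusted p = 0.00741). For MDM2 it was lower in total RNA by 1.14 ± 0.18 (log2 difference -1.14; edgeR adjusted p = 6.35e-06). These are 3 higher and 1 lower of the 7 p53 targets with a peak, where 53.1% of all genes tested were called (2875 of 11481 higher and 3219, or 28.0%, lower). FAS rests on 1 to 4 counts per K513R input and 2 to 9 per WT input, and without WT input replicate 3 the difference was 1.33 with an adjusted p of 0.196. CDKN1A (0.94 ± 0.78), TP53I3 (1.37 ± 1.64) and BBC3 (0.18 ± 0.52) were not called, on at most 10 input counts in any library. When RNA-seq was scaled by the whole gene table, the differences became -1.51 for MDM2, 1.03 for BAX, 1.52 for SESN1 and 1.78 for FAS, all still called. That scaling moved the median of all genes to -0.43 and the calls over all genes to 1964 higher and 4337 lower, against 2875 higher and 3219 lower in the main scaling. The assays differ in RNA selection, in fragment and library preparation and in the part of the gene counted, and these cannot be told apart here.

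**Figure D4:**
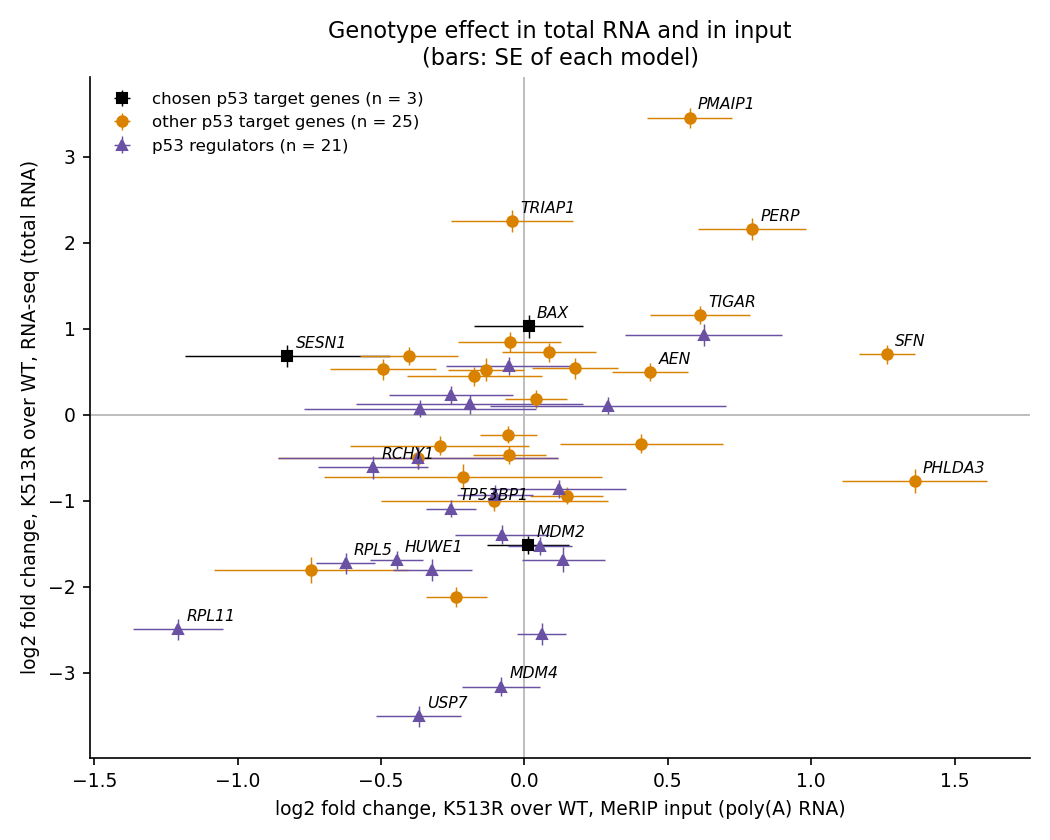
Log2 fold change of K513R over WT in total RNA against that in MeRIP input for genes tested in both, as black squares for MDM2, BAX and SESN1, orange circles for 25 other p53 targets and purple triangles for 21 p53 regulators, with bars for the SE. MDM2 and BAX lie at an input change of 0.01, SESN1 lies on opposite sides of 0 in the assays, and SFN, PMAIP1, PERP, TIGAR and AEN lie above 0 in both.

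In input 5 of 21 p53 regulators were lower and 0 higher, and of 25 other p53 targets 6 were higher and 0 lower. Over all genes tested in input 13.5% were higher and 13.6% lower. The median log2 fold change in input was -0.19 for the regulators and -0.05 for the other targets, against 0.01 for all genes tested. Some of these targets were higher in both assays. Among 25 tested in both, the 5 genes SFN, PMAIP1, PERP, AEN and TIGAR were called higher in both, or 20.0%, where 6.50% of 8514 genes tested in both were. These genes are named because the count is small, after their values were seen. SFN, the 14-3-3 sigma protein that holds cells at G2, was at 866 ± 66.2 CPM in K513R inputs and 360 ± 28.3 CPM in WT inputs (log2 fold change 1.26 ± 0.10, edgeR adjusted p = 1.62e-07) and rose by 0.71 ± 0.11 in total RNA. PERP, a desmosomal p53 target, rose by 0.79 ± 0.19 in input and by 2.16 ± 0.13 in total RNA. PMAIP1 rose by 0.58 ± 0.15 in input, TIGAR by 0.61 ± 0.17 and AEN by 0.44 ± 0.13. The AEN call in input was lost without K513R input replicate 2, WT input replicate 2 or WT input replicate 3 (edgeR adjusted p 0.0545 to 0.115). That of TIGAR was lost without K513R input replicate 1, WT input replicate 1 or WT input replicate 3, or with 1 peak per gene (0.0556 to 0.118), and that of PMAIP1 without WT input replicate 1 (0.0546). PHLDA3, an inhibitor of AKT, was opposite, at 1.36 ± 0.25 in input and -0.77 ± 0.14 in total RNA. Of 21 regulators tested in both, TP53BP1, HUWE1, RCHY1, RPL5 and RPL11 were lower in both, 5 of 21, where 922 of 8514 genes were. The largest of these was RPL11, a ribosomal protein that binds MDM2, with log2 fold changes of -1.21 ± 0.16 in input and -2.49 ± 0.12 in total RNA. The input calls of TP53BP1 (-0.26) and RCHY1 (-0.53) were lost under 10 and 11 of 16 alternatives. USP7 (-0.37 ± 0.15, edgeR adjusted p = 0.0751) and MDM4 (-0.08 ± 0.14, adjusted p = 0.698) were not called in input. Nor were FADD (0.07 ± 0.13), HRK (0.11 ± 0.23), XIAP (-0.43 ± 0.24), CDKN2B (-0.30 ± 0.19), CDKN2D (-0.40 ± 0.46), CCNA2 (-0.02 ± 0.16), RRM2 (-0.45 ± 0.36) or TRIAP1 (-0.04 ± 0.21), all of which were called in total RNA.

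The genes of the BCL2 family and the death receptor pathway, more often lower than higher in total RNA, were not so in input. Of 17 tested there, 3 were higher and 1 lower in K513R, where 13.5% of all genes tested in input were higher and 13.6% lower. The median log2 fold change of the 17 was 0.23, against 0.01 for all genes tested. The 4 genes called are named after their values were seen. BCL2L1, which restrains BAX, averaged 391.9 CPM in K513R and 181.3 CPM in WT inputs (log2 fold change 1.11 ± 0.11, edgeR adjusted p = 2.84e-06), and at -1.57 ± 0.11 in total RNA. CASP8, the caspase that FAS and FADD activate, was at 0.94 ± 0.16 in input and -0.70 ± 0.10 in total RNA. Both were thus called in opposite directions in the assays, as were 523 of 8514 genes tested in both. MCL1, another restrainer of BAX-type proteins, was higher in both, at 0.77 ± 0.11 in input and 0.88 ± 0.12 in total RNA. CYCS, the cytochrome c released from mitochondria in apoptosis, was lower in both, at -0.55 ± 0.13 in input and -0.32 ± 0.13 in total RNA. Its call in total RNA was lost under 7 of 16 alternatives, among them without K513R replicate 1, K513R replicate 3 or WT replicate 1 (edgeR adjusted p 0.0905 to 0.140), while the input calls of these 4 genes held in all 16. Of the p21 partners 1 was higher and 4 lower of 11 tested in input, and of the relatives 0 were higher and 3 lower of 7, beside the same shares of all genes.

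KRT8 and KRT18, epithelial keratins that were far lower in total RNA, were not called in input. KRT8 was at 0.21 ± 0.11 in input and -2.20 ± 0.15 in total RNA, and KRT18 at -0.15 ± 0.10 in input and -3.56 ± 0.16 in total RNA. Of 6 epithelial markers tested in input, CDH1 and CLDN4 were higher and EPCAM lower, with a median of 0.30, and each was called in the same direction in total RNA. Over all genes tested in input 13.5% were higher and 13.6% lower. The input call of EPCAM was lost under 9 of 16 alternatives, among them leaving out any input library but K513R replicate 1, and that of CDH1 without K513R input replicate 2, WT input replicate 2 or WT input replicate 3. Of 2 markers of other cell types tested in input 0 were called.

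The m6A peaks of the p53 targets lay mainly in last exons or first exons. Of the 15 peaks, 9 were called by the authors in WT and 6 in K513R cells. Of all 39708 peaks, 24302 were called in WT and 15406 in K513R cells. Counts inside peaks summed to 5905811 to 9198650 per K513R IP and 11076729 to 12491969 per WT IP library. Where peaks called in both genotypes overlapped they count as separate entries, so that 11 positions do not overlap each other. Peak counts near the end of MDM2 may not use strand either: the opposite-strand peak that runs into the end of MDM2 (chr12:68842196-68851282) held 702, 571 and 605 IP counts in K513R and 1034, 757 and 927 in WT libraries, close to those of the MDM2 peak it overlaps. Enrichment is given as log2 IP over input per library, from CPM over the tested peaks with 0.5 added. The median over all 27252 tested peaks was 0.23 in K513R and 0.24 in WT. Of the 15 peaks 10 had enough counts to be tested, on MDM2, BBC3, BAX, FAS and SESN1.

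BAX carried the 1 peak of the 10 tested that was called in the main test. Of all peaks tested 22.6% were called, 13.0% higher and 9.61% lower in K513R. The 10 are not separate sites, since those of MDM2, BBC3 and SESN1 include overlapping entries from both genotypes. With input and IP libraries of the same number paired, 2 overlapping entries near the start of the last MDM2 exon were also called. Both were lower in K513R (edgeR adjusted p = 0.0304 and 0.0378). The BAX peak covers 822 bases of the first merged exon (chr19:48954904-48955725, + strand) and was called by the authors in K513R cells. Its log2 IP over input was 0.26, -0.09 and -0.13 in K513R libraries and -0.94, -1.12 and -1.56 in WT libraries. The groups did not overlap, and the log2 difference was 1.27 ± 0.29 (edgeR adjusted p = 0.00502). The share of all tested peaks whose genotypes do not overlap was not computed, here or for the peaks below. For genes tested in input it was 42.3%. The counts behind it were 121, 93 and 105 in K513R IP and 95, 74 and 61 in WT IP libraries, with 59, 50 and 54 in K513R and 77, 72 and 87 in WT inputs. The mean in K513R, 0.01 ± 0.21, lay below the median of all tested peaks. In WT the mean was -1.21 ± 0.32, so scaled IP levels lay below those of input. The authors' deposited table gives this peak a fold enrichment of 1.62. The call held in all 18 alternatives that keep the peak, with adjusted p between 0.00103 and 0.0255. BAX had 2 further peaks in its last exon, called in WT, with at most 7 IP counts in any library.

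**Figure D5:**
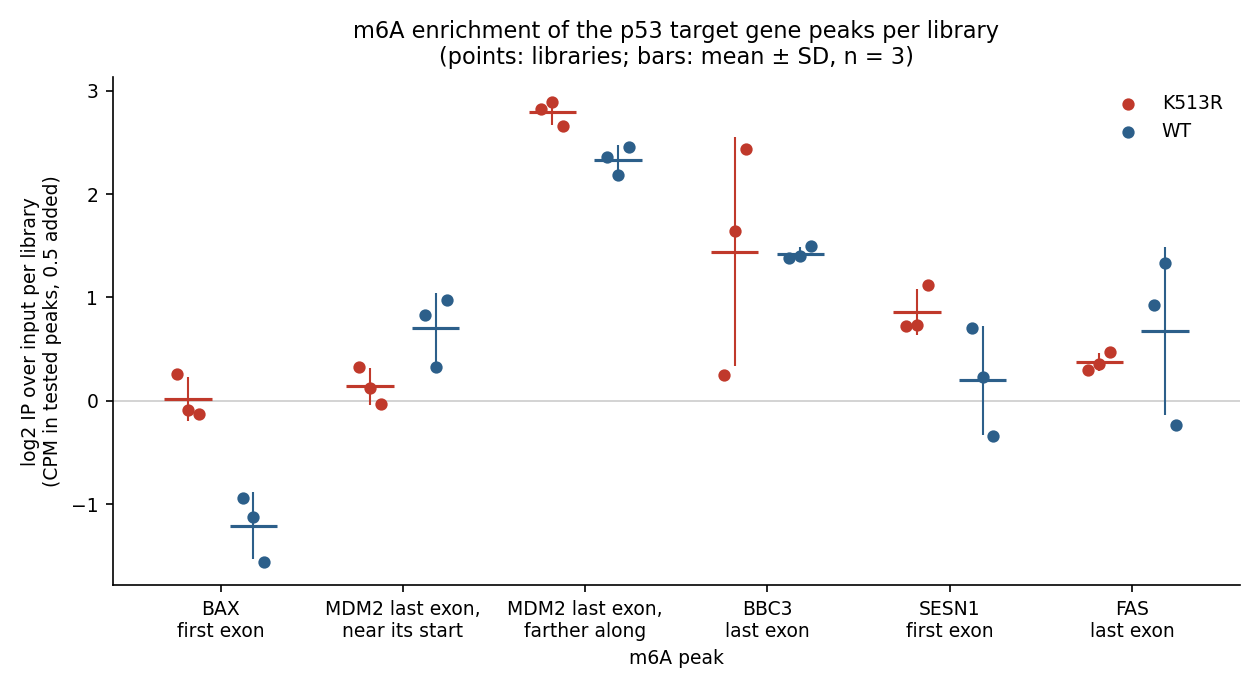
Log2 IP over input per library for 6 peaks of 5 p53 target genes, K513R in red and WT in blue, with the mean and SD of 3 libraries. The BAX peak lies higher in K513R with no overlap, and of the 2 MDM2 positions the one near the start of the last exon lies lower and the one farther along lies higher in K513R.

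MDM2 had 2 enriched positions in its last exon and they leaned opposite ways. The position near the start of the exon (chr12:68839353-68839802, + strand, 450 bases) had log2 IP over input of 0.33, 0.12 and -0.03 in K513R and 0.83, 0.33 and 0.97 in WT libraries. The highest K513R library lay just above the lowest WT library, and the log2 difference of -0.59 ± 0.23 missed the threshold (edgeR adjusted p = 0.0655). It was called when input and IP libraries of the same number were paired (-0.58, adjusted p = 0.0304), with library size (-0.82, 0.0262) or upper-quartile scaling (-0.63, 0.0490), and without K513R IP replicate 3 (-0.63, 0.0435) or K513R input replicate 1 (-0.72, 0.0273). The authors' deposited table gives a log2 difference of -0.83 with an FDR of 0.00570 for it. The position farther along (chr12:68841805-68842434, + strand, 630 bases) was the most enriched of the p53 target peaks, at 2.83, 2.89 and 2.66 in K513R and 2.35, 2.18 and 2.46 in WT libraries. All K513R libraries lay above all WT libraries, but the log2 difference of 0.47 ± 0.22 was not called (edgeR adjusted p = 0.131). When peaks under the median score were left out, it was 0.67 with an adjusted p of 0.0333.

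A ratio of the 2 MDM2 positions needs no scaling between libraries. In IP libraries the count of the farther position over that of the nearer one was 2.41, 2.51 and 2.51 in K513R and 1.38, 1.46 and 1.13 in WT. The groups did not overlap, the mean ratio was 2.48 ± 0.0584 in K513R and 1.32 ± 0.172 in WT (SD, n = 3 each), and the log2 difference of the ratios was 0.91. The two-sided exact permutation p was 0.1, the smallest that 3 against 3 libraries can give. In inputs the ratio was 0.414, 0.357 and 0.379 in K513R and 0.470, 0.395 and 0.394 in WT, groups that overlapped (exact permutation p = 0.4, two-sided). These positions were paired after their values were seen. Since the farther position overlaps the opposite-strand peak, whose counts are close to its own, the share of each transcript in this ratio cannot be told apart.

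The other 3 genes with tested peaks showed no called change. BBC3 had a peak in its last exon (chr19:47221422-47221843, − strand) with log2 IP over input of 0.25, 1.64 and 2.44 in K513R and 1.38, 1.40 and 1.49 in WT libraries. The K513R libraries spread on both sides of the WT libraries, resting on 1 to 7 counts per K513R input, and the log2 difference was 0.01 ± 0.37 (edgeR adjusted p = 0.989). SESN1 had its peak with most IP counts in its first exon (chr6:109094038-109094189, − strand), at 0.73, 0.73 and 1.12 in K513R and 0.71, 0.23 and -0.34 in WT libraries. The K513R libraries lay just above the WT libraries, and the log2 difference was 0.73 ± 0.49 (edgeR adjusted p = 0.297). FAS had a peak in its last merged exon (chr10:89014335-89014576, + strand) at 0.29, 0.36 and 0.47 in K513R and 0.93, 1.33 and -0.23 in WT libraries, with a log2 difference of -0.14 ± 0.98 (edgeR adjusted p = 0.936). The peak of CDKN1A (chr6:36677919-36678845, + strand), which overlaps DINOL and has 151 of its 927 bases in CDKN1A exons, had 4, 9 and 10 IP counts in K513R and 7, 5 and 12 in WT libraries. That of TP53I3 (chr2:24077432-24077492, − strand) had 0, 1 and 0 IP counts in K513R and 3, 5 and 3 in WT libraries. Neither could be tested at this depth.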

How the data were processed

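Per the submitters' processing notes, reads were handled with Trimmomatic 0.36, featureCounts of Subread 1.5.1, bedtools, deepTools and edgeR 3.12.1 on GRCh38. No aligner or caller of peaks is named in the sources used here. The authors deposited unnormalized counts, of genes in the RNA-seq and of peaks in the input and IP libraries. Per the file headers, the deposited peak table also holds a fold enrichment (ratio of IP over input), p-values and FDR, a score, which equals the fold in 100% of peaks, and a log2 difference between the genotypes. Coordinates follow GRCh38. Promoter windows are from RefSeq (GRCh38.p14).

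The test was edgeR's robust quasi-likelihood test (version 4.0.16, R 4.3.3), two-sided, after filterByExpr and TMM scaling, with Benjamini-Hochberg adjustment over all features tested and a threshold of 0.05, with genotype as the term in RNA-seq and input, assay by genotype for their difference, and IP by genotype for peaks. TMM factors were computed within each kind of library. Input counts were summed per gene over its non-overlapping peaks on its strand. Log2 IP over input used CPM with 0.5 added. A peak belonged to a gene if at least 1 base lay in its exons (bedtools 2.31.1, Python 3.11.15). Overlapping annotated exons of a gene were merged, and first and last exons are those after merging. Levels are TMM-scaled CPM with the SD of 3 libraries, except the marker sums, which are CPM by library size, and each ± after a fold change is the model's SE. Scripts were tested on simulated data. Alternatives used RLE, upper-quartile or library size scaling, other filters, DESeq2 1.42.0, limma-voom 3.58.1, a block for replicate number, and fits without each library in turn. Scaling RNA-seq by the whole gene table in the joint model was chosen after seeing the data.

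The members and gene lists were chosen with earlier results of these data known. Named are the 10 members, of each list up to 3 genes with the largest fold change among those called in RNA-seq and averaging 1 CPM or more, and of the peaks the one with most IP counts per member, those called and both ends of the range. The values of 1 further gene that the rule names are not reported here. For the marker lists in RNA-seq, 7 of 12 epithelial markers tested were lower and 4 higher in K513R, led by KRT19, KRT18 and KRT8. Of 21 markers of other cell types 14 were higher and 1 lower, led by CD14, CD3D and CSF1R. Over all genes tested 36.9% were lower and 41.5% higher. No 2 libraries of a group agreed within sampling noise.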

Additional observations from a re-analysis of the deposited data

Results flagged for a closer look

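The genotype effect differed between total RNA and MeRIP input for 4 p53 targets by the test of the difference itself in the joint edgeR model. MDM2 was lower in K513R in total RNA and level in input, with a log2 difference of -1.14. BAX was higher in total RNA and level in input, with a difference of 1.41. SESN1 was higher in total RNA and lay below WT in input without passing the test there, with a difference of 1.89. Input counts come from peaks alone, for BAX nearly all and for SESN1 all of them in the first exon. FAS had a difference of 2.15, on at most 9 input counts per library. Over all genes tested 53.1% showed such a difference, so it is common in this comparison.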

How the results depend on the processing

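The calls of the 10 p53 targets in RNA-seq numbered 5 to 6 higher and 3 to 4 lower over 16 alternatives, with CDKN1A and, under upper-quartile factors, RRM2B as the calls lost. Leaving out 1 library gave 5 higher and 4 lower each time. In input, library size scaling gave 752 genes lower and 1669 higher, against 1169 lower and 1164 higher with TMM factors. Leaving out 1 input library gave 720 to 1369 higher and 744 to 1527 lower over all genes, and 0 to 1 p53 targets lower, the one being SESN1 without K513R input replicate 1. For peaks, library size scaling gave 1813 higher and 3928 lower, against 3543 higher and 2620 lower, and peaks at or above the median score gave 887 higher and 552 lower, from fewer peaks tested. Leaving out 1 MeRIP library gave 2249 to 4393 peaks higher and 1652 to 3248 lower, with the fewest without WT IP replicate 1. Called p53 target peaks were 2 higher at or above the median score, both at the farther MDM2 position. Lower ones were 2 with library size, 1 with upper-quartile factors and 0 to 2 when 1 library was left out, at the nearer MDM2 position. With the replicate block of input and IP, 4611 peaks were higher and 3453 lower, and 2 p53 target peaks, the overlapping entries of that position, were lower. Requiring 50% of a peak in exons left 13 of 15 peaks and the same call. In deviations from the group mean, IP and input libraries of the same number correlated at 0.0630 to 0.325. Those of different numbers correlated at -0.252 to 0.103. The main test did not take numbers as pairs, because the labels do not say that they mark pairs. Per the labels' protocols input was set aside from the fragments used for IP, so input and IP of the same number may share a preparation. If they do, the main test of peaks left out a pairing. With a replicate block in RNA-seq 12382 genes were higher and 11038 lower, and no call of a p53 target changed. Uncalled values near 0 changed sign. In input MDM2 was -0.0033 without a filter and -0.0064 with limma-voom, BAX was -0.0025 and -0.014, and without single libraries MDM2 ranged between -0.15 and 0.14 and BAX between -0.13 and 0.17. The difference between assays was -0.20 for BBC3 with RNA-seq scaled by the whole gene table (chosen after seeing the data), and without 1 library it ranged between -0.14 and 0.80. The BBC3 peak was -0.18 with library size, -0.029 with upper-quartile factors, -0.060 with limma-voom and -0.061 with the replicate block, and without 1 library between -0.31 and 0.60. The FAS peak lay between -0.93 and 0.37 without 1 library. For these changes the cause was not tested. Depth limits CDKN1A, BBC3, FAS and TP53I3 in input and 5 of the 15 peaks.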
